A study of Homo sapiens with 4 samples.

Results

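SUZ12 and 9 other genes of the Polycomb complexes were followed on 4 two-colour expression arrays of squamous carcinoma cells that had received miR-489 or miR-504. The genes were SUZ12, EZH2, EZH1, EED, RBBP4 and RBBP7 of Polycomb repressive complex 2 (PRC2) and BMI1, RING1, RNF2 and CBX8 of Polycomb repressive complex 1 (PRC1). Every feature whose gene name on the array was one of these was taken, which gave 10 genes of 30982 gene names and 17 probes of 41000. SUZ12 was selected on the FaDu miR-489 array, where the study listed it among the lowered genes, and its values in any contrast with that array are given as a description, without a test.

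Each array compared a miRNA transfectant, labelled with Cy5, with a transfectant of a negative-control miRNA of the same line, labelled with Cy3, 72 h after transfection. FaDu is a line from a hypopharyngeal squamous cell carcinoma and HSC3 a line from a squamous cell carcinoma of the tongue. The 4 conditions were miR-489 in FaDu, miR-504 in FaDu, miR-489 in HSC3 and miR-504 in HSC3, with 1 array each and no dye swap, so a single condition has no replicate and no error. The same miRNA in 2 lines was the only replication. The p-values below rest on the spread between lines, pooled over both miRNAs and moderated by limma towards that of all probes. Whether the 2 arrays of a line shared a control extract is not given in the sources used here.

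Polycomb proteins keep genes silent by modifying chromatin. PRC2 places a repressive methyl mark on histone H3 through its catalytic subunit, EZH2 or EZH1, held together by SUZ12 and EED and joined by the histone-binding proteins RBBP4 or RBBP7. PRC1 attaches ubiquitin to histone H2A through RING1 or RNF2, and contains a PCGF protein such as BMI1 and, in its canonical form, a CBX protein such as CBX8 that reads the PRC2 mark. A miRNA lowers transcripts that pair with bases 2 to 8 at its 5′ end, the seed.

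The miRNAs are shown because the seed sets which transcripts each can pair with. The mature sequences are those of RefSeq on GRCh38.p14, written 5′ to 3′ with the seed in capitals. The labels name no arm for miR-489 or miR-504. Both arms of miR-504 are given, and the 3p arm of miR-489.
hsa-miR-489-3p: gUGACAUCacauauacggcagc
hsa-miR-504-5p: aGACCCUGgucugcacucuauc
hsa-miR-504-3p: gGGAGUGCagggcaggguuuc
The first lies at chr7:93483947-93483968, the second at chrX:138667760-138667781 and the third at chrX:138667724-138667744, all on the minus strand. The 3 seeds differ from each other. Matches of the seeds in the members' transcripts were not analysed here.

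The arrays were alike in quality. Control signal was well above background at 58.2% to 59.2% of spots, no member had more than 1 spot, and other probes printed as replicate spots varied by 0.0887 to 0.104 (SD of the log2 ratio within an array). Of the 17 member probes, 16 had a Cy3 signal well above background on every array, as had 20914 of all probes. The epithelial markers KRT5, KRT14, KRT17, EPCAM and CDH1 were well above background on all 4 arrays, as the labelled cell type requires. The leukocyte marker PTPRC and the endothelial marker PECAM1 were not above background on any array. The fibroblast collagen gene COL1A1 was above it in HSC3 alone, with a control signal of 43.8 and 40.9.

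With miR-489, the transcripts of SUZ12 and RBBP4, both non-catalytic subunits of PRC2, were far below their control level in both lines. With miR-504 both were below it by less than 1.5-fold. The other 8 genes stayed within 2-fold of the control on all 4 arrays. Values are log2 ratios of miRNA over control, centred so that the median probe of an array is 0, from the brightest probe of each gene.

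**Figure D1:**
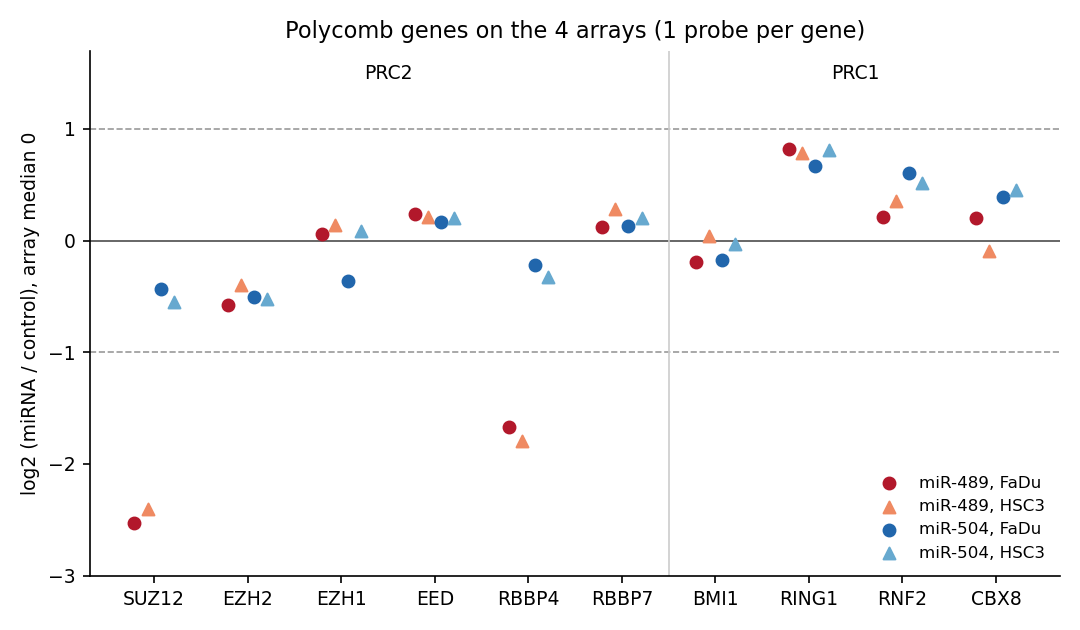
Log2 ratio of miRNA transfectant over control (y axis, array median at 0) for the 10 Polycomb genes (x axis, PRC2 left and PRC1 right), 1 point per array, with dashed lines at 2-fold. SUZ12 at -2.53 and -2.40 and RBBP4 at -1.67 and -1.80 are the points beyond the lower dashed line, all 4 of them from miR-489 arrays.

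SUZ12 had a control signal of 3503.5 and a miR-489 signal of 906 in FaDu, and 2860 and 811 in HSC3. On the miR-504 arrays the control and miRNA signals of SUZ12 were 3091.5 and 3592.5 in FaDu, and 3643 and 3383.5 in HSC3. These signals are not yet scaled for the general excess of Cy5, and the scaled log2 ratios of SUZ12 were -2.53 with miR-489 in FaDu, -2.40 with miR-489 in HSC3, -0.43 with miR-504 in FaDu and -0.55 with miR-504 in HSC3. SUZ12 was thus 5.79-fold and 5.29-fold lower with miR-489 and 1.35-fold and 1.47-fold lower with miR-504. Within each miRNA the lines lay 0.13 and 0.12 apart on the log2 scale, and their order is within that spread.

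The mean log2 ratio of SUZ12 was -2.47 ± 0.09 with miR-489 and -0.49 ± 0.08 with miR-504 (SD between lines, n = 2 each). The difference between the miRNAs was -2.10 in FaDu and -1.85 in HSC3. SUZ12 had only 0.39% of 17704 genes below it on the FaDu miR-489 array and 0.459% of 17847 on the HSC3 miR-489 array, against 22.4% and 16.8% on the miR-504 arrays of FaDu and HSC3. With miR-504, a contrast that the selection did not use, the fall of SUZ12 passed the test (log2 difference -0.49, SE 0.08, adjusted p = 0.00779 by limma over all 20914 probes), and 23.4% of all probes were called lower there. That call was lost when either miR-504 array was left out (adjusted p = 0.0609 without FaDu and 0.0901 without HSC3).

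On the deposited scale, a limit of 4-fold in the FaDu miR-489 array separates SUZ12, at -2.68, from the nearest member outside it, RBBP4, at -1.79. The other SUZ12 probes were at -1.57 and -0.54 on that scale.

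The 3 probes of SUZ12 gave the same direction with miR-489 and different sizes. In the order of the transcript, from 5′ to 3′, the first probe (A_32_P24223) had log2 ratios of -1.44 in FaDu and -1.32 in HSC3 with miR-489, and -0.43 and -0.51 with miR-504. The middle probe (A_24_P873263) had -0.68 and -0.53 with miR-489, and 0.00 and -0.23 with miR-504. With miR-504 the middle probe did not pass the test (adjusted p = 0.353 by limma), while the first did (adjusted p = 0.0079). The last probe (A_23_P100883) is the brightest one described above. On all 3 probes both miR-489 values lay below both miR-504 values, and the share of all probes where this held is not given here. The control signals of the 3 probes were 585 to 646, 111.5 to 145 and 2860 to 3643, so the smallest ratios came from the dimmest probe, and the part of probe signal in the size was not tested.

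**Figure D2:**
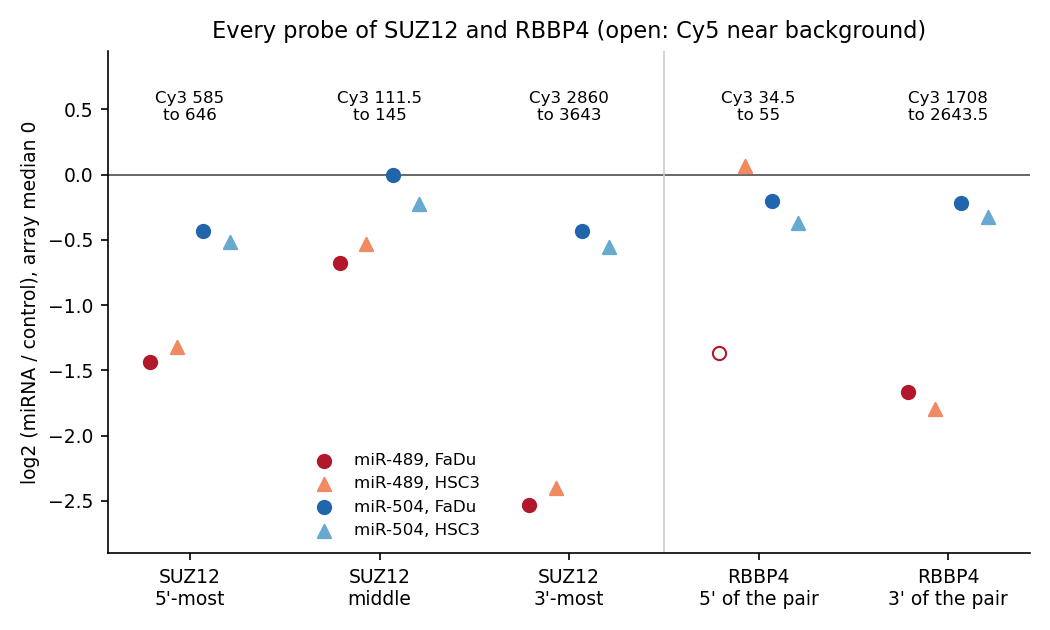
Log2 ratio of miRNA over control (y axis) for every probe of SUZ12 and RBBP4 (x axis, in transcript order within each gene), 1 point per array, with the range of the Cy3 control signal above each probe; the open point has a Cy5 signal not well above background and is a bound. The 3 SUZ12 probes are all lower with miR-489 than with miR-504, by most in the last one, and of the RBBP4 probes the bright one separates the miRNAs in both lines.

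RBBP4, the histone-binding WD40 protein of PRC2, was the other member at least 2-fold lower with miR-489. Its control and miR-489 signals were 2643.5 and 1244.5 in FaDu and 1708 and 738 in HSC3, against 2554.5 and 3446.5 in FaDu and 2153 and 2342 in HSC3 on the miR-504 arrays. The log2 ratios of RBBP4 were -1.67 and -1.80 with miR-489 and -0.22 and -0.32 with miR-504, in FaDu and HSC3. RBBP4 was thus 3.18-fold and 3.47-fold lower with miR-489. With miR-489 it had 1.89% and 1.27% of genes below it, in FaDu and HSC3, and with miR-504 it had 34.8% and 28.1%.

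RBBP4 fell with miR-489 (log2 difference -1.73, SE 0.08, adjusted p = 0.000878 by limma) and, by much less, with miR-504 (-0.27, SE 0.08, adjusted p = 0.0437). The miR-504 call of RBBP4 was lost without background subtraction (adjusted p = 0.171), with the mean of its probes (adjusted p = 0.221) and without the FaDu or the HSC3 miR-504 array (adjusted p = 0.159 and 0.293). The difference between the miRNAs was -1.45 in FaDu and -1.47 in HSC3, a mean of -1.46 (SE 0.12, 95% interval -1.76 to -1.16, adjusted p = 0.0314). Leaving out any 1 array kept the difference of RBBP4 between -1.52 and -1.40 and ended the call. An arm then held 1 array, and the cause of the lost call was not tested.

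The second RBBP4 probe (A_24_P912095), which lies 5′ of the first, was dim, with control signals of 34.5 to 55. Its log2 ratios were -1.37 and 0.06 with miR-489 and -0.20 and -0.37 with miR-504, in FaDu and HSC3. The FaDu miR-489 signal was not well above background, which makes that value a bound of at least 2.58-fold lower. HSC3 with miR-489 lay above both miR-504 values, so this probe did not separate the miRNAs (difference -0.37, SE 0.46, adjusted p = 0.735). With the mean of both probes in place of the brightest, the difference of RBBP4 was -0.91 (adjusted p = 0.174). RefSeq lists 7 pseudogenes named after RBBP4 and 2 named after SUZ12, and signal from such copies cannot be told apart from that of the gene.

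Counts over the members are given beside those over all genes. SUZ12 is 1 of the members counted lower in each contrast with miR-489, where the selection fixed its direction on the FaDu array, so no result is read from those counts. At least 2-fold lower were 2 of 10 members on the FaDu miR-489 array, against 8.78% of all genes with control signal well above background, and 2 of 10 on the HSC3 miR-489 array, against 8.15%. None was 2-fold lower with miR-504, against 5.98% of genes in FaDu and 5.11% in HSC3. None was 2-fold higher on any array, where the shares of all genes were 2.86% and 2.71% with miR-489 and 2.34% and 1.97% with miR-504, in FaDu and HSC3. Between the miRNAs, SUZ12 and RBBP4 were at least 2-fold lower with miR-489 in both lines, against 2.28% of 15725 genes in FaDu and 1.65% in HSC3, and no member was 2-fold higher, against 0.992% and 0.572%. The median of the 10 members was 0.09 in both lines with miR-489, and -0.02 in FaDu and 0.14 in HSC3 with miR-504, against medians of -0.03 to -0.01 over all genes.

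By limma, 3 of 10 members were lower with miR-489 (SUZ12, RBBP4 and EZH2), against 26.6% of all probes, and 2 were higher (RING1 and RNF2), against 30.5%. SUZ12 was selected on 1 of the miR-489 arrays, so it is counted there but that call is not a test of it. With miR-504, 3 were lower (the same SUZ12, RBBP4 and EZH2), against 23.4%, and 3 were higher (RING1, RNF2 and CBX8), against 26.2%. The miR-504 counts are near the background. The 3 lower calls were lost when either miR-504 array was left out, which left 1 array in that arm. Calls over all probes fell as well. Between the miRNAs, 2 members were lower with miR-489 (SUZ12, which the selection fixed, and RBBP4), against 0.784% of probes, and none was higher, against 0.316%. At an unadjusted p under 0.05, 3 members differed between the miRNAs, against 18.5% of all probes, and SUZ12, which the selection fixed, was among the 3. A ratio against the control holds the effect of the dyes as well as that of the transfection, and the 2 cannot be told apart without a dye swap. What is common to the arrays cancels in the difference between the miRNAs.

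**Figure D3:**
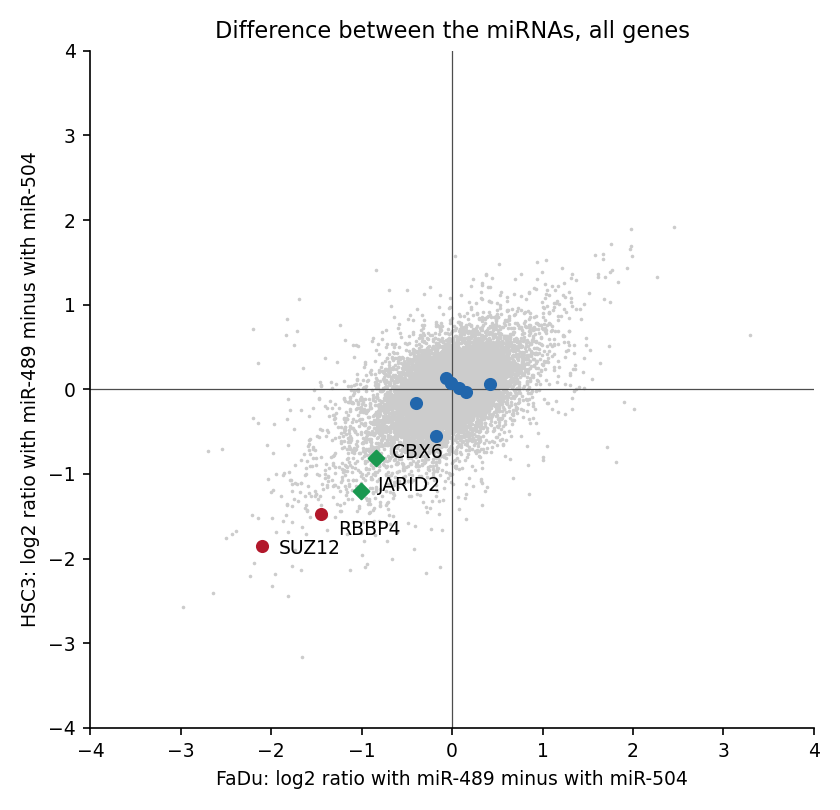
Log2 ratio with miR-489 minus that with miR-504 in FaDu (x axis) and in HSC3 (y axis) for the 15725 genes measured in both lines (grey), with SUZ12 and RBBP4 in red, the other 8 members in blue, and JARID2 and CBX6, Polycomb genes outside the 10, as green diamonds. SUZ12 at -2.10 and -1.85 and RBBP4 at -1.45 and -1.47 lie at the lower left, and the other members lie between -0.55 and 0.42 in both lines.

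The catalytic subunits did not follow SUZ12. EZH2, the main PRC2 methyltransferase of dividing cells, had log2 ratios of -0.58 in FaDu and -0.40 in HSC3 with miR-489, and -0.50 and -0.53 with miR-504. EZH2 was below the control on all 4 arrays by a similar amount (miR-489 -0.49, adjusted p = 0.00671; miR-504 -0.51, adjusted p = 0.0070, by limma), and the difference between the miRNAs was 0.03 with a 95% interval of -0.27 to 0.33 (adjusted p = 0.932). A second EZH2 probe (A_24_P649050) had no control signal well above background on any array and gives no ratio. EZH1, the alternative methyltransferase, was dim, with control signals of 44 and 74 in FaDu and 125 and 134.5 in HSC3. Its log2 ratios were 0.06 and 0.14 with miR-489 and -0.36 and 0.09 with miR-504, in FaDu and HSC3, and no contrast of EZH1 passed the test (difference 0.24, 95% interval -0.21 to 0.68, adjusted p = 0.537). With the deposited ratios EZH1 was called higher with miR-489 (0.38, adjusted p = 0.0435).

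EED, the PRC2 subunit that binds the methyl mark, had log2 ratios of 0.24 and 0.21 with miR-489 and 0.16 and 0.20 with miR-504, in FaDu and HSC3. The 4 values of EED lay within 0.08 of each other, and the difference between the miRNAs was 0.04 (95% interval -0.23 to 0.31, adjusted p = 0.876 by limma). RBBP7, the close relative of RBBP4, had control signals of 8909 to 16716 and log2 ratios of 0.12 and 0.28 with miR-489 and 0.13 and 0.21 with miR-504. The difference of RBBP7 between the miRNAs was 0.03 (95% interval -0.27 to 0.33, adjusted p = 0.926). A change of 2-fold between the miRNAs lies outside the intervals of EZH2, EED, EZH1 and RBBP7, while smaller changes lie within them. Against the control, EED and RBBP7 missed the threshold with miR-489 (adjusted p = 0.0501 and 0.0930) and passed it with normexp background correction (adjusted p = 0.0142 and 0.0235) and without subtraction (adjusted p = 0.00472 and 0.00775). With loess, normexp with loess and the deposited ratios, EED was at 0.08, 0.07 and 0.05 and RBBP7 turned to -0.04, -0.06 and -0.06 (none called). The direction of RBBP7 against the control therefore depends on the normalisation, with miR-504 as well (-0.03, -0.05 and -0.04).

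Of the PRC1 genes, RING1, one of the paired ubiquitin ligases, was the highest member. RING1 had log2 ratios of 0.82 and 0.78 with miR-489 and 0.67 and 0.81 with miR-504, in FaDu and HSC3, with control signals of 448.5 to 679.5. RING1 was higher than the control with both miRNAs (miR-489 0.80, SE 0.08, adjusted p = 0.00166; miR-504 0.74, SE 0.08, adjusted p = 0.00262, by limma), and the difference between them was 0.06 (95% interval -0.23 to 0.35, adjusted p = 0.835).

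RNF2, the other ligase, was measured by a pair of probes that went opposite ways. The brighter (A_23_P85543) had 0.21 and 0.35 with miR-489 and 0.61 and 0.52 with miR-504, and it was called higher in both (adjusted p = 0.0348 and 0.00526 by limma). The RNF2 call with miR-489 was lost under loess, normexp with loess and the deposited ratios (adjusted p = 0.0774, 0.0711 and 0.0824) and without any 1 array (adjusted p = 0.0664 to 0.187). The RNF2 call with miR-504 was lost without the FaDu miR-504 array (adjusted p = 0.0694) and with the mean of both probes (0.06, adjusted p = 0.627). The dimmer RNF2 probe (A_24_P199500) had -0.84 and -0.57 with miR-489 and -0.58 and -0.32 with miR-504, and it was called lower in both (adjusted p = 0.00494 and 0.0230). The direction of RNF2 against the control is therefore not settled by these arrays. Between the miRNAs both probes pointed the same way, -0.28 and -0.25, and neither passed the test (adjusted p = 0.294 and 0.453).

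BMI1, the PCGF subunit of canonical PRC1, had 3 probes. The brightest had log2 ratios of -0.19 and 0.04 with miR-489 and -0.17 and -0.03 with miR-504, and no contrast passed the test. The second BMI1 probe (A_23_P314115) had 0.27 and 0.60 with miR-489 and 0.56 and 0.46 with miR-504 and was called higher in both (adjusted p = 0.0190 and 0.0137 by limma). The third had -0.16 and 0.55 with miR-489 and 0.01 and 0.26 with miR-504, in FaDu and HSC3, and no contrast passed the test. None of the 3 BMI1 probes was called between the miRNAs (adjusted p = 0.843 to 0.943).

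CBX8, a chromodomain reader of the PRC2 mark, had control signals of 134 and 147 in FaDu and 89 and 78.5 in HSC3. Its log2 ratios were 0.20 and -0.09 with miR-489 and 0.39 and 0.45 with miR-504. CBX8 was called higher with miR-504 (0.42, SE 0.10, adjusted p = 0.0212 by limma) and not with miR-489 (0.05, adjusted p = 0.663). The miR-504 call of CBX8 was lost without background subtraction (adjusted p = 0.0553) and without the FaDu or the HSC3 miR-504 array (adjusted p = 0.120 and 0.157). The difference of CBX8 between the miRNAs, -0.37, did not pass the test (SE 0.14, adjusted p = 0.265 by limma).

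The genes whose 4 ratios were most like those of SUZ12 were found by Euclidean distance among 15603 genes measured above background in both colours on every array. Nearest were the transcript THC2376015 at a distance of 0.34, AP1M2, an adaptor subunit of epithelial vesicle sorting, at 0.39, the transcript BI050742 at 0.51, RP11-11C5.2 at 0.56 and C14orf147 at 0.57. The distance includes the FaDu miR-489 array, on which SUZ12 was selected. The study's list of lowered genes from that array also holds AP1M2, RP11-11C5.2 and C14orf147. Their likeness to SUZ12 on it is therefore not independent of the selection. AP1M2 had log2 ratios of -2.41 and -2.31 with miR-489 and -0.22 and -0.26 with miR-504, in FaDu and HSC3. RBBP4 ranked 33 at a distance of 1.10, and the next member, EZH2, ranked 2784 at 2.80.

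Beyond the 10 members, 32 other Polycomb genes were listed, of which 30 were on the array and 27 could be tested. Of these 27, 11 were lower and 9 higher with miR-489 by limma, 7 were lower and 5 higher with miR-504, and 2 were lower with miR-489 than with miR-504, JARID2 and CBX6. Over all probes the shares were 26.6% lower and 30.5% higher with miR-489, 23.4% and 26.2% with miR-504, and 0.784% lower between the miRNAs. The median of the list was 0.04 and -0.05 with miR-489 and -0.14 and -0.14 with miR-504, in FaDu and HSC3.

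JARID2, the accessory subunit that helps bring PRC2 to chromatin, had log2 ratios of -1.19 and -1.42 with miR-489 and -0.19 and -0.22 with miR-504, in FaDu and HSC3. JARID2 was at least 2-fold lower with miR-489 in both lines, and the difference between the miRNAs was -1.10 (SE 0.13, adjusted p = 0.0395 by limma). Its control signals were 474 and 397.5 in FaDu and 1139 and 1682 in HSC3, and 1 probe measured it. CBX6, another chromodomain protein of PRC1, had -1.20 and -1.12 with miR-489 and -0.35 and -0.31 with miR-504 (difference -0.83, SE 0.11, adjusted p = 0.0492). In FaDu the control signal of CBX6 was 322 on the miR-489 array and 625 on the miR-504 array, and the part of that gap in the difference was not tested. Without any 1 array, neither gene was called (adjusted p = 0.0957 to 0.274 for JARID2 and 0.105 to 0.312 for CBX6). CBX6 also missed the threshold under loess (adjusted p = 0.0612), normexp with loess (adjusted p = 0.0680) and the mean spot signal (adjusted p = 0.0513), and with probes averaged by gene neither passed (adjusted p = 0.0584 for JARID2 and 0.0651 for CBX6).

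**Figure D4:**
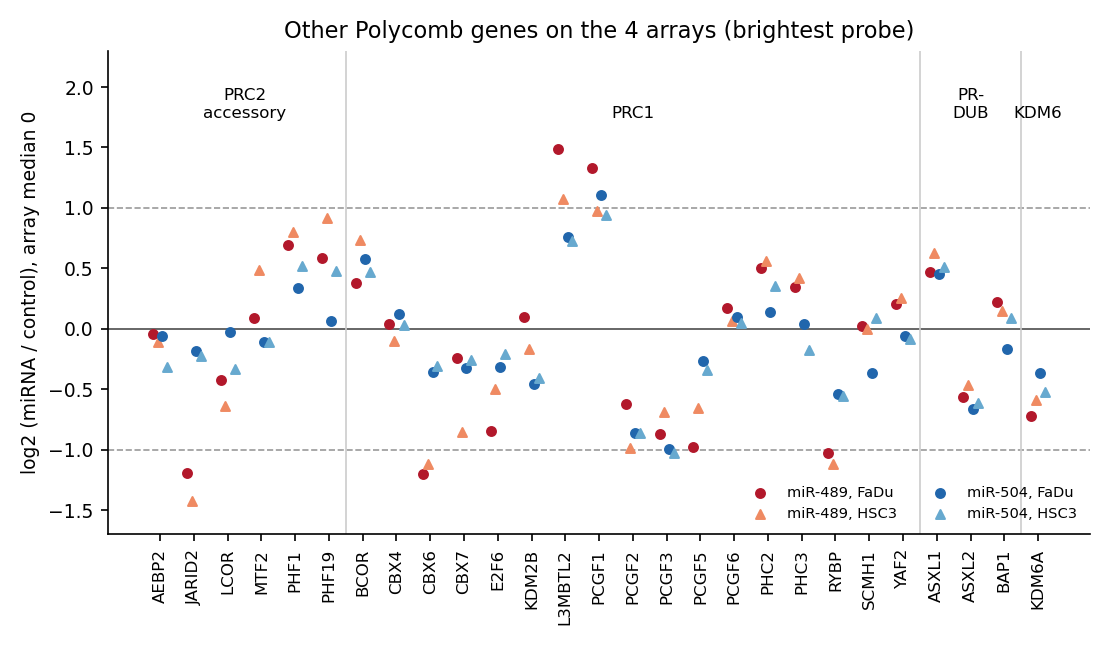
Log2 ratio of miRNA over control (y axis) for the 27 other Polycomb genes that could be tested (x axis, grouped as PRC2 accessory, PRC1, the PR-DUB deubiquitinase and the KDM6 demethylase), 1 point per array, with dashed lines at 2-fold. JARID2 at -1.19 and -1.42 and CBX6 at -1.20 and -1.12 with miR-489 lie apart from their miR-504 points, while PCGF1 is high with both miRNAs and the brightest PCGF3 probe is low with both.

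A further 4 genes of that list were past 2-fold on some array. With miR-489, 3 of 27 list genes in FaDu and 3 of 28 in HSC3 were at least 2-fold lower, against 8.78% and 8.15% of all genes. With miR-504 it was 0 of 28 and 1 of 28, against 5.98% and 5.11%. At least 2-fold higher were 2 and 1 with miR-489, against 2.86% and 2.71%, and 1 and 0 with miR-504, against 2.34% and 1.97%. No result is read from these counts. RYBP, which takes the place of CBX proteins in variant PRC1, had -1.03 and -1.12 with miR-489 and -0.54 and -0.55 with miR-504, and fell with both (adjusted p = 0.000962 and 0.00472 by limma). A second RYBP probe had -0.73 and -0.96 with miR-489 and -0.76 and -0.38 with miR-504, all within 2-fold. This probe was called lower with both (adjusted p = 0.00404 and 0.0156 by limma), and between the miRNAs it differed by 0.04 in FaDu and -0.58 in HSC3. PCGF1, a variant PRC1 subunit, had 1.33 and 0.98 with miR-489 and 1.11 and 0.94 with miR-504, and rose with both (adjusted p = 0.00156 and 0.00266). L3MBTL2, another variant PRC1 protein, had 1.49 and 1.08 with miR-489 and 0.76 and 0.73 with miR-504, and rose with both (adjusted p = 0.00135 and 0.00633), although a second L3MBTL2 probe rose with miR-489 alone (0.98 and 0.59, adjusted p = 0.00417) and had 0.02 and 0.14 with miR-504 (adjusted p = 0.598). None of these 3 genes was called between the miRNAs (adjusted p = 0.108 for RYBP, 0.741 for PCGF1 and 0.194 for L3MBTL2). The brightest PCGF3 probe had -0.87 and -0.69 with miR-489 and -0.99 and -1.03 with miR-504, but a second PCGF3 probe had 0.71 and 0.63, and 0.32 and 0.62, and the last had 0.02 and 0.29, and -0.50 and -0.65, so the direction of PCGF3 is not settled.

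Genes known as Polycomb targets in many cell types, the HOX genes and 10 others, were looked at next, and none rose by 2-fold. Of all genes, 2.86% and 2.71% were at least 2-fold higher with miR-489 and 2.34% and 1.97% with miR-504, in FaDu and HSC3. A count of none in a list of this size is near those shares, so no result is read from it. Of 49 such genes, all on the array, 21 could be tested, of which 9 were lower and 4 higher with miR-489 by limma, the counts were again 9 and 4 with miR-504, and none was called between the miRNAs. Of all probes, 26.6% were lower and 30.5% higher with miR-489, and 23.4% and 26.2% with miR-504. Between the miRNAs, 0.784% of all probes were lower and 0.316% higher with miR-489. No result is read from none of 21 beside shares that small. The limma test took only genes whose Cy3 signal cleared background on each array. Targets silent or dim in the control cells were therefore left out, and a rise of those was not tested by limma. Among targets with control signal well above background, 4 of 32 and 2 of 23 were at least 2-fold lower with miR-489 and 4 of 31 and 4 of 25 with miR-504, in FaDu and HSC3, against 8.78%, 8.15%, 5.98% and 5.11% of all genes in the same order. The median of the targets was -0.23 and -0.43 with miR-489 and -0.15 and -0.25 with miR-504.

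The brightest probe of SOX1, a neural transcription factor gene, was past 2-fold lower on all 4 arrays. It had -1.41 and -1.46 with miR-489 and -1.66 and -1.40 with miR-504, with no difference called (adjusted p = 0.772 by limma). Its control signals were 9640.5 to 11827, above those of SUZ12, and whether that signal comes from SOX1 was not tested. The brightest HOXB3 probe had -1.16 and -0.75 with miR-489 and -1.11 and -1.05 with miR-504. SOX1 had 2 probes and HOXB3 had 3, and the others are not given here.

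The control transfectants show what the lines themselves expressed. Levels are log2 control signals after normalisation across the arrays, read only within a gene. SUZ12 was close in the lines, 12.17 and 12.03 in FaDu and 11.86 and 11.96 in HSC3, 1.14-fold lower in HSC3. EZH2, EED, RBBP4 and RBBP7 were lower in HSC3 by 0.82, 0.71, 0.60 and 0.94 on the log2 scale. The second, dim RBBP4 probe was 0.32 higher in HSC3, and the mean of both RBBP4 probes differed by -0.14. EZH1 was higher in HSC3 by 1.09, although its FaDu values lay 0.89 apart.

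Of the PRC1 genes, BMI1 and RNF2 were higher in HSC3, by 0.69 and 0.55, while RING1 and CBX8 were lower in HSC3, by 0.74 and 1.04. For all 10 members the pair of FaDu values and the pair of HSC3 values did not overlap, but the same held for 77.8% of 15725 genes, and the arrays of a line may share 1 control extract, so no test was made. The similar falls of SUZ12 and RBBP4 with miR-489 were thus measured in lines that differed by 1.14-fold and 1.51-fold in the control level of their brightest probes.

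**Figure D5:**
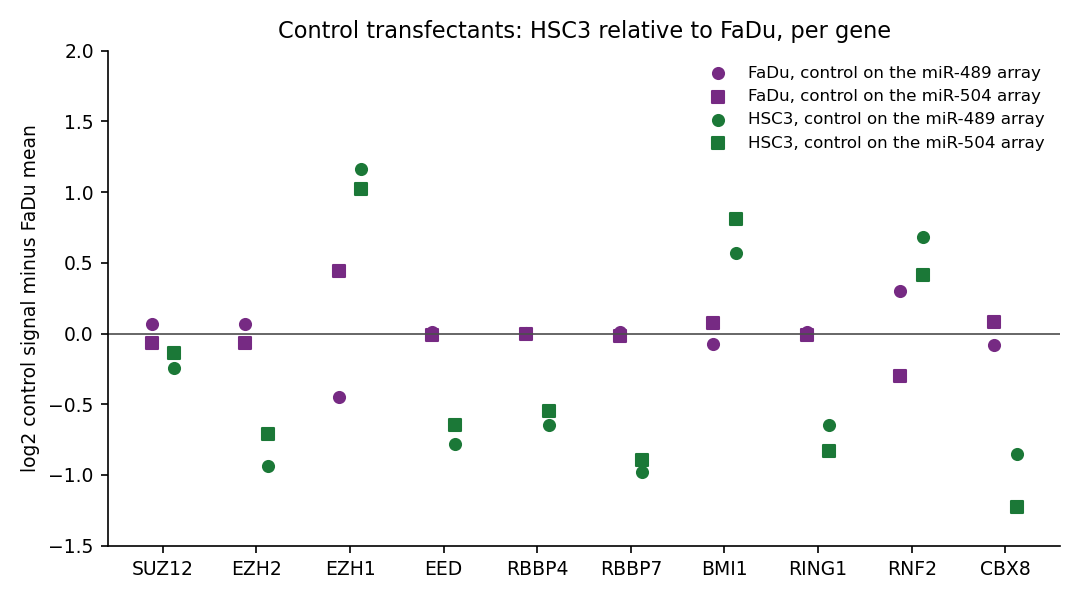
Log2 control (Cy3) signal after normalisation, minus the mean of the 2 FaDu values of the gene (y axis), for the 10 members (x axis), with FaDu in purple and HSC3 in green and 1 point per array. SUZ12 lies closest to the FaDu level in HSC3, while EZH1 is 1.09 above it and CBX8 lies 1.04 below it.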

How the data were processed

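The files of 4 two-colour Agilent 44K arrays, made by the authors with Feature Extraction 9.5.3.1 on 1 slide and in 1 scan, hold deposited spot intensities, their log10 ratios and the 0 or 1 marks (other) for spots well above background. The deposited value table equals those log10 ratios (largest difference 0), and no genome build is given in the sources used here for the probe positions, so only their order was used. The study's methods name another scanner and program, with log2 ratios of background-subtracted medians and a global normalisation.

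Here each spot's median intensity was reduced by its median local background, outlier spots were left out (118 to 137 an array), a channel not well above background was raised to the lowest signal that was, and log2(Cy5/Cy3) was centred on the median of spots well above background in both channels (0.45 to 0.65 removed). Spots of a probe were averaged, and the brightest probe by mean log2 Cy3 stood for a gene. limma 3.58.1 in R 4.3.3 tested 20914 probes with Cy3 well above background on all arrays, lines as replicates (2 residual degrees of freedom). Benjamini-Hochberg adjustment was used with a threshold of 0.05. The same fit was also run on simulated data. The ratio against 0 leaves out the spread of the control RNA. Control levels came from loess within arrays and quantile normalisation of the average signal.

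Alternatives were normexp (offset 50), no subtraction, mean spot signal, loess (span 0.3), normexp with loess, the deposited ratios, the mean of a gene's probes, other folds (1.5 and 4), stricter and looser filters, the line as a block, and each array left out. Named were all members, other Polycomb genes past 2-fold on any array, Polycomb targets past 2-fold on both arrays of a miRNA, and the 5 genes most like SUZ12. One Polycomb target that met this rule is not reported here. EPOP and KDM6B were not matched to the array. LCOR, KDM2B, KDM6A and EPCAM were matched through the older names C10orf12, FBXL10, UTX and TACSTD1. The members and lists were chosen with earlier results of these data known. The 4 arrays limit the precision.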

Additional observations from a re-analysis of the deposited data

How the results depend on the processing

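The ratios of SUZ12 and RBBP4 kept their direction under every alternative run. The mean log2 ratio of SUZ12 with miR-489 was -2.33 with normexp, -2.25 without background subtraction, -2.60 with loess, -2.59 with the deposited ratios and -1.48 as the mean of its 3 probes. With miR-504 it was -0.35 without subtraction, -0.59 with loess, -0.59 with normexp and loess, and -0.36 as the mean of probes. The difference of SUZ12 between the miRNAs was -1.12 as the mean of probes. That of RBBP4 was -0.91 as the mean of probes (adjusted p = 0.174) and -1.52 to -1.40 with 1 array left out (adjusted p = 0.0847 to 0.258).

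At 4-fold, 1 member was lower with miR-489 in FaDu and 1 in HSC3, and with the mean of probes 1 was 2-fold lower in HSC3. At 1.5-fold, 1 and 1 members were higher with miR-489 and 2 and 1 with miR-504, in FaDu and HSC3. The shares of all genes at 1.5-fold and 4-fold are not given here, so no result is read from these counts. Members called higher with miR-489 by limma numbered 4 with normexp and 4 without subtraction. They numbered 1 with loess, 1 with normexp and loess and 1 with the mean of probes. Calls over all 20914 probes, in either direction, were 11938 in the main setting, 12765 with normexp and 13336 without subtraction. Those calls were 11220 with loess and 11529 with normexp and loess, and 8472 of 15757 genes with the mean of probes. Leaving out any 1 array lowered the count of members, as it lowered that of all probes. Leaving out a miR-504 array reduced the members called with miR-504 in both directions, and calls over all probes fell as well. Between the miRNAs, 0 members were lower with the mean of probes, where 60 of 15757 genes were called in either direction. Without any 1 array, limma called 0 of all probes between the miRNAs, with 2065 to 3704 at an unadjusted p under 0.05. RNF2 with miR-489 turned to -0.21 as the mean of its probes (adjusted p = 0.0983). The cause of these changes was not tested, except that leaving out an array leaves fewer samples.

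With the line as a replicate block, the members lower between the miRNAs were again 2, while all probes called rose from 230 to 578. The lone array of an arm is assumed to vary like the others. The alternatives for JARID2 and CBX6 were chosen after seeing the data.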
